A study of Mus musculus with 19 samples.

Results

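The regions described here are the promoters of long noncoding RNA (lncRNA) genes that stand apart from protein-coding promoters, and the question was how often SOX3 occupied them in the juvenile mouse testis. A promoter was the stretch from 2 kb before to 2 kb after the annotated start site (TSS) of a gene in GENCODE release M21 (GRCm38/mm10). Of 10155 lncRNA start sites, 7119 lay 5 kb or more from every protein-coding start site and are called distal lncRNA promoters below. The other 3036 lay within 5 kb of one and are called near lncRNA promoters. Of the distal genes, 5143 were annotated as lincRNA (intergenic), 1366 as antisense, 364 as processed transcript and 222 as sense intronic, and the remaining 24 belonged to 3 rarer types.

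The data were 2 replicates of SOX3 chromatin immunoprecipitation sequencing (ChIP-seq) from testis at postnatal day 7, and 2 replicates of SOX3 ChIP-nexus, a variant in which an exonuclease trims the precipitated DNA towards the protein contact. All 4 came from the same tissue and age and used a mixture of SOX3 antibodies, no treatment is given in the labels, and the study's methods state that tubules of several juvenile mice were combined for a ChIP-seq library. The tissue holds germ cells and somatic cells, so the cell type behind a peak cannot be told apart, and peak lists hold no expression with which to check the tissue label against marker genes. The lists held 58351 ChIP-seq peaks in replicate 1 and 38832 in replicate 2 and do not give the sequencing depth. The study lists more unique reads for replicate 2, the library with fewer peaks, than for replicate 1. Each ChIP-seq peak carries a q score, a log10-scaled form of its adjusted p-value that is higher for stronger peaks and exceeds 30 in both lists, and a log2 ratio of ChIP over input.

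SOX3 belongs to the SOX family of transcription factors, which bind short AT-rich sites through a high-mobility-group box, and in the testis it marks undifferentiated spermatogonia. lncRNA genes give rise to long transcripts without a protein product. Some act in the nucleus, some in imprinting or X inactivation, and some mainly carry small RNAs in their introns. Many mouse promoters overlap CpG islands, stretches that kept their CpG dinucleotides because they are seldom methylated in the germ line. The CpG ratio, the observed count of CpG over the count expected from the C and G content, measures this, and it was taken over the 1 kb around each start site. Promoters with a ratio below 0.48 are called CpG-poor, those from 0.75 CpG-rich, and those between them CpG-intermediate.

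Distal lncRNA promoters were mostly CpG-poor. Their median CpG ratio was 0.212, against 0.472 at near lncRNA and 0.553 at protein-coding start sites. By class, 6632 (93.2%) were CpG-poor, 385 (5.41%) CpG-intermediate and 102 (1.43%) CpG-rich. Of the near lncRNA promoters 24.5% were CpG-rich, and of the protein-coding promoters 27.5%. The sequences below run from 250 bases before to 50 bases after the start site, in the direction of transcription, in lower case with each CpG in capitals, and show the range of promoters behind the results. They come from the RefSeq copy of GRCm38.

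The first 3 stood highest in mean rank of q score over both replicates, among all distal members with overlapping peaks (AY036118) and among the CpG-poor ones (Gm2044, Mir17hg). The start site of AY036118 (chr17:39847986-39848285, minus strand) lay under a peak shared with other members at an annotated ribosomal RNA gene. Gm2044 (chr7:139957990-139958289, minus strand) lies beside Mir202, and Mir17hg (chr14:115042629-115042928, plus strand) is the host of the miR-17 cluster.
AY036118: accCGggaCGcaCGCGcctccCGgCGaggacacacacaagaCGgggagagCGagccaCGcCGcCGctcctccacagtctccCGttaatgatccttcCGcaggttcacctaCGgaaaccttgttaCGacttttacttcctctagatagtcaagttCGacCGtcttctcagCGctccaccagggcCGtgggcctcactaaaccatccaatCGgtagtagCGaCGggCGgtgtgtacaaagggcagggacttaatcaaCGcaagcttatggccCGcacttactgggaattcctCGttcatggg
Gm2044: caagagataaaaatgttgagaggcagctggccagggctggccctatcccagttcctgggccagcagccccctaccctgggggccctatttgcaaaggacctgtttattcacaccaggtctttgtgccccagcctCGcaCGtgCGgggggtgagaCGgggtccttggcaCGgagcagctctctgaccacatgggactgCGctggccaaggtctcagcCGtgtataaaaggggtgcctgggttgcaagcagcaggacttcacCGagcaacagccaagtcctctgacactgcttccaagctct
Mir17hg: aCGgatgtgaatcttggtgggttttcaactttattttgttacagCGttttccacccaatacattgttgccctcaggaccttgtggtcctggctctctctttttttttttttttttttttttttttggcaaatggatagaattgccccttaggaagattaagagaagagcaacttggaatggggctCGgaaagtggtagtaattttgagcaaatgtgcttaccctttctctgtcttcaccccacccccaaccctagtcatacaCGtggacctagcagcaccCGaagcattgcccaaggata
The promoter of 2410006H16Rik (chr11:62602627-62602926, plus strand), a host of small nucleolar RNAs, ranked highest away from the ribosomal RNA gene. The segment at the centre of the replicate 1 peak of Mir17hg (chr14:115041288-115041587, plus strand) is shown because it lay upstream of the annotated start site. Both were chosen after their values were seen.
2410006H16Rik: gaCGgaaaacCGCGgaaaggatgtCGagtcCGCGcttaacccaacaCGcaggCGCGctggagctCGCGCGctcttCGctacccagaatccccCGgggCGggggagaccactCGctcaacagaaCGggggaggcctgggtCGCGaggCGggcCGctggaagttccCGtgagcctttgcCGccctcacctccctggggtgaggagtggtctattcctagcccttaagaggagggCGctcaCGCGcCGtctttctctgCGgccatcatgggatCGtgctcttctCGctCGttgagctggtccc
Mir17hg peak centre: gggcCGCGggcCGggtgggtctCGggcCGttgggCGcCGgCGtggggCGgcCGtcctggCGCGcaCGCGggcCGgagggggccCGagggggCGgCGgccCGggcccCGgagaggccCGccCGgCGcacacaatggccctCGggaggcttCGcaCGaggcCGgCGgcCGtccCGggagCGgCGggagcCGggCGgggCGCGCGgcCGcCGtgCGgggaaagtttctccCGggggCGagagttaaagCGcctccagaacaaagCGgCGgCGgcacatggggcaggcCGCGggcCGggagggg
The CpG-rich promoter of Gm10685 (chr3:96457959-96458258, plus strand) had no peak in either replicate. Gm29090 (chrY:85672196-85672495, minus strand) had the median CpG ratio of CpG-poor members without a peak, and 99% of the bases around its start site were masked as repeats.
Gm10685: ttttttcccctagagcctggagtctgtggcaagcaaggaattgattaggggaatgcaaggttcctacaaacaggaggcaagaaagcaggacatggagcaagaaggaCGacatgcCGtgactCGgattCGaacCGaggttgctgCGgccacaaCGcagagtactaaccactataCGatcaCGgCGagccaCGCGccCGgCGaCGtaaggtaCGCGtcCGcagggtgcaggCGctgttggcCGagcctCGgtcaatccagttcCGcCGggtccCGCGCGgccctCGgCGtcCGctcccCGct
Gm29090: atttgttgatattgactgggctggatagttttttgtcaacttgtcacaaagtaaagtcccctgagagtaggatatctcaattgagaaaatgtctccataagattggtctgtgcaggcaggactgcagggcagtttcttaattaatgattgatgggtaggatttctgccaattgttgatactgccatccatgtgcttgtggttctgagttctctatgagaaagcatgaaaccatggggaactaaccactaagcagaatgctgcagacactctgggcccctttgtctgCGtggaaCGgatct
The 300 bases of 2410006H16Rik held 31 CpGs and those of Gm10685 30, so CpG-dense promoters stood both with and without a peak. The start site of Mir17hg had only 5 CpGs in its 300 bases, whereas the 300 bases at the centre of its peak had 49. Gm2044 had 8 CpGs and a strong peak, and Gm29090 had 2 and none.

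SOX3 peaks lay in 1329 of the 7119 distal lncRNA promoters (18.7%) in replicate 1 and in 887 (12.5%) in replicate 2. Over all 55413 annotated genes of any type the corresponding shares were 37.1% and 31.2%, so distal lncRNA promoters held a peak less often than the annotation as a whole. The mean share was 15.6% ± 4.39 (SD, n = 2). Peaks of both replicates that overlapped lay in 491 members (6.90%), against 27.6% of all genes. A further 82 members had a peak in each replicate that did not overlap, 756 had a peak in replicate 1 alone, 314 in replicate 2 alone, and 5476 had none. Of the members with a peak in replicate 1, 36.9% had an overlapping peak in replicate 2, and of those with a peak in replicate 2, 55.4% had one in replicate 1. At near lncRNA promoters these shares were 77.9% and 91.2%. Few peaks served several members: the 1329 members of replicate 1 drew on 1265 distinct strongest peaks and the 887 of replicate 2 on 846, and no peak was the strongest of more than 3 members.

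The share of distal lncRNA promoters with a peak rose with CpG ratio. In the CpG-poor class 15.9% had a peak in replicate 1 (exact Clopper-Pearson 95% interval 14.99 to 16.8) and 10.1% in replicate 2 (9.43 to 10.9). These intervals cover counting error over start sites and not the spread between animals. In the CpG-intermediate class the shares were 50.4% (45.3 to 55.5) and 37.9% (33.1 to 43.0). In the CpG-rich class they were 81.4% (72.4 to 88.4) and 66.7% (56.6 to 75.7). The class means were 13.0% ± 4.041, 44.2% ± 8.82 and 74.0% ± 10.4 (SD, n = 2), so the steps between classes exceeded the spread between replicates. In bins of 0.1, the share in replicate 1 went from 4.66% of 794 members below a ratio of 0.1 to 26.03% of 972 between 0.3 and 0.4 and 75.4% of 65 between 0.7 and 0.8. In a logistic fit over all members, the odds of a peak rose by a factor of 1.71 (95% interval 1.64 to 1.78) per 0.1 of CpG ratio in replicate 1 and 1.63 (1.56 to 1.70) in replicate 2. The requirement of overlapping peaks widened the contrast, with 4.60% of CpG-poor, 31.2% of CpG-intermediate and 64.7% of CpG-rich members retained. Because the CpG-poor class was so large, it still gave 305 of the 491 members with overlapping peaks, against 120 CpG-intermediate and 66 CpG-rich members.

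**Figure D1:**
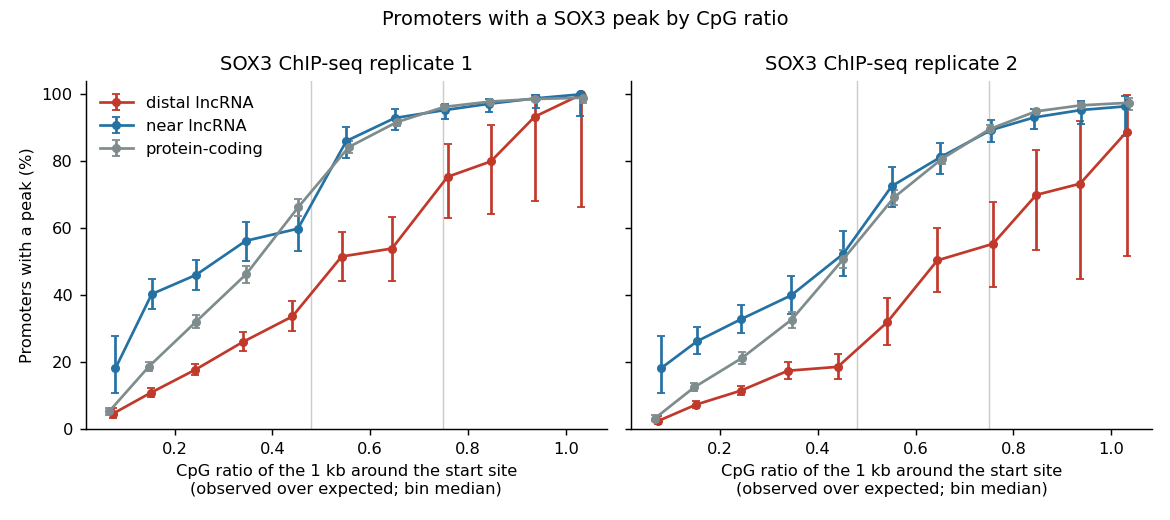
Share of promoters with a SOX3 peak (%, vertical axis) by CpG ratio of the 1 kb around the start site (horizontal axis, bin median) in each replicate, for distal lncRNA, near lncRNA and protein-coding promoters. Bars are exact 95% intervals, and the grey lines mark the class limits 0.48 and 0.75. The distal curve rises with CpG ratio but stays below both others in most bins.

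At the same CpG class, distal lncRNA promoters held a peak less often than near ones. Among CpG-poor promoters 46.2% of near members had a peak in replicate 1 and 33.5% in replicate 2, among CpG-intermediate ones 89.3% and 78.6%, and among CpG-rich ones 97.3% and 93.0%. Without regard to CpG content, 69.3% and 59.2% of near lncRNA promoters had a peak, and the odds for distal members were 0.102 (0.0921 to 0.112) and 0.0981 (0.0887 to 0.109) times those of near members. With CpG ratio and its square in the logistic fit, the odds ratios were 0.222 (0.198 to 0.248) and 0.233 (0.207 to 0.263). Within the CpG-rich class alone they were 0.121 (0.0619 to 0.235) and 0.150 (0.0913 to 0.248). Against protein-coding promoters, of which 64.5% and 56.5% had a peak, the odds ratios were 0.126 (0.118 to 0.135) and 0.110 (0.102 to 0.118), and 0.395 (0.365 to 0.428) and 0.394 (0.360 to 0.430) with CpG ratio in the fit. All of these intervals lay below 1 in both replicates. Among CpG-poor promoters of every gene type, the distal lncRNA class included, 17.1% and 11.9% had a peak. This is close to the 15.9% and 10.1% of the distal lncRNA class. Among CpG-intermediate promoters of every gene type the shares were 79.5% and 68.8%, against 50.4% and 37.9% of distal members. Among CpG-rich ones they were 96.9% and 93.0%, against 81.4% and 66.7% of distal members.

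A near lncRNA promoter often contained a second promoter. A protein-coding start site lay within 2 kb of 77.6% of near lncRNA start sites, and the strongest peak covered a protein-coding start site at 70.4% of occupied near members in replicate 1 and 71.2% in replicate 2. For near CpG-poor members these shares were 47.2% and 47.7%. At distal members they were 0.301% (4 of 1329) and 0 of 887, which allows a share of up to 0.338% at 3 counts of the total (exact upper limit 0.415%). These low distal shares follow largely from the definition and are not a separate result. Distal start sites lie 5 kb or more from every protein-coding one, and their strongest peaks had median widths of 828 and 699 bp.

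From 2 kb outwards, the share of CpG-poor lncRNA promoters with a peak declined with distance from the nearest protein-coding start site. Closer in, it did not decline. In replicate 1 it was 44.2% under 0.5 kb and 55.7% at 0.5 to 2 kb, and in replicate 2 it was 32.2% and 44.3%. Among CpG-poor lncRNA promoters in replicate 1 it was 39.2% at 2 to 5 kb, 27.4% at 5 to 10 kb, 26.3% at 10 to 20 kb, 21.1% at 20 to 50 kb, 14.4% at 50 to 100 kb and 6.01% at 100 kb or more. In replicate 2 the corresponding values were 24.9%, 17.9%, 14.1%, 13.6%, 10.8% and 3.94%. Neither of the other classes fell at every step. The CpG-intermediate share fell at each step except for a rise at 50 to 100 kb, also closer in than 2 kb. In replicate 1 it went from 91.5% under 0.5 kb to 64.7% at 5 to 10 kb, and in replicate 2 from 80.2% to 55.9%. In replicate 1 the CpG-intermediate share was 52.8% at 20 to 50 kb, 60% at 50 to 100 kb and 23.7% at 100 kb or more (34.8%, 46.2% and 17.5% in replicate 2). The CpG-rich share was 76.2% of 21 members at 5 to 10 kb, 89.5% of 19 at 10 to 20 kb and 66.7% of 18 at 100 kb or more in replicate 1 (57.1%, 73.7% and 50% in replicate 2). The 2 members just inside the limit were AW121686, at 5002 bp, with a peak in replicate 1 alone, and A730035I17Rik, at 5006 bp and CpG-rich, with overlapping peaks. The 2 start sites just outside it were AC132460.3, at 4983 bp, with overlapping peaks, and Gm15729, at 4987 bp, with a peak in replicate 2 alone. The share was also lower where repeats were dense. Where 75% or more of the 1 kb was masked as repeats, 0.393% of 764 CpG-poor members had a peak in each replicate, against 18.96% and 12.1% of 4108 members with under 25% masked. All 551 members on chromosome Y were CpG-poor, with a median masked share of 100% and no peak. The shares by masking include them, and this difference was not split by chromosome. Reads that matched several places were assigned at random by the authors, and the part of mappability in this difference was not tested.

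**Figure D2:**
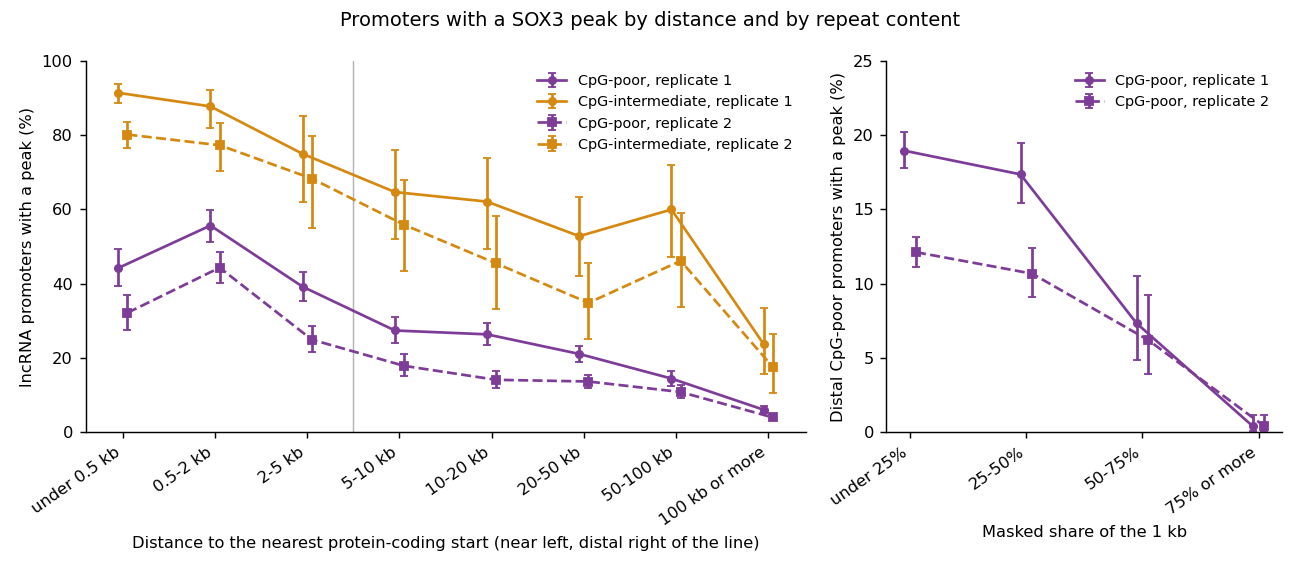
Left, share of lncRNA promoters with a peak (%) by distance to the nearest protein-coding start site, for CpG-poor and CpG-intermediate start sites in each replicate, with near members left and distal members right of the line. Right, share of distal CpG-poor promoters with a peak by masked share of the 1 kb, members on chromosome Y included. Bars are exact 95% intervals. The CpG-poor share in replicate 1 falls from 39.2% at 2 to 5 kb to 6.01% at 100 kb or more.

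These features were fitted together over the 6435 autosomal members, a model added after the data were seen. CpG ratio kept an odds ratio of 1.59 (1.52 to 1.66) per 0.1 in replicate 1 and 1.51 (1.45 to 1.58) in replicate 2. Each 10-fold increase in distance to a protein-coding start multiplied the odds by 0.294 (0.256 to 0.339) and 0.381 (0.326 to 0.446), and each 10 percentage points masked by 0.826 (0.791 to 0.862) and 0.833 (0.792 to 0.875). A start site inside a protein-coding gene had odds of 0.695 (0.590 to 0.818) and 0.743 (0.616 to 0.896) times those outside one at the same values of the other terms. The unadjusted shares, over all members with the sex chromosomes included, ran the other way. They were 21.5% and 13.99% inside a protein-coding gene against 17.9% and 12.1% outside, and the replicate 2 intervals overlapped. Overlapping peaks of both replicates lay at 6.46% inside and 7.01% outside. Which term of the fit turned the direction was not tested. Genes with 2 or more exons had an odds ratio above 1 in replicate 1, at 1.38 (1.02 to 1.87), but not in replicate 2, at 0.859 (0.628 to 1.17).

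By annotated type, peaks lay in 33.2% of processed transcript members in replicate 1 and 25.5% in replicate 2, 24.1% and 15.2% of antisense members, 16.4% and 10.8% of lincRNA members and 12.6% and 11.7% of sense intronic members. CpG-intermediate and CpG-rich start sites made up 20.3% of the processed transcript members but 6.24% of lincRNA and 6.30% of antisense members. Within the CpG-poor class the first 3 types still stood in this order, at 23.8% and 15.9%, 21.8% and 13.6%, and 13.9% and 8.81%, and the intervals of processed transcript and antisense members overlapped in both replicates. A small RNA gene of GENCODE M21 (such as microRNA, small nucleolar, small nuclear or ribosomal RNA) lay within 2 kb of 119 members. Transfer RNA genes were not counted. Of the 119 members, 39.5% and 33.6% had a peak, against 18.3% and 12.1% of the other 7000. Within the CpG-poor class the counts were 22 and 16 of 88, against 15.7% and 10.04% of 6544 without such a gene. The intervals of these shares met at their edges, at 16.4 and 16.6 in replicate 1 and at 10.8 in replicate 2.

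Members on the sex chromosomes differed from the autosomes in part. Of 551 members on chromosome Y, all CpG-poor, 0 had a peak in either replicate, which allows a share of up to 0.544% at 3 counts of the total (exact upper limit 0.667%). Their median masked share was 100%, against 16.8% for autosomal members. Only 10 peaks of each list lay on chromosome Y, and 3 of its 183 protein-coding promoters had one in each replicate. On chromosome X 14.3% (8.83 to 21.4) of 133 members had a peak in replicate 1 and 7.52% (3.66 to 13.4) in replicate 2, against 20.4% and 13.6% on the autosomes, and these intervals overlapped those of the autosomes. Overlapping peaks of both replicates lay at 7.52% of X members (10 of 133) and 7.47% of autosomal members. Among CpG-poor members the X shares were 6.54% (2.67 to 13.0) and 2.80% (0.582 to 7.98), and did not overlap the intervals of the autosomal 17.5% (16.5 to 18.5) and 11.2% (10.4 to 12.0). Juvenile testis is male, so X and Y are each present in 1 copy per diploid genome and the part of copy number was not tested. Among autosomes the share was highest on chromosome 17, at 37.2% and 26.6% of 274 members, and lowest on chromosome 3, at 12.8% and 7.88% of 368. CpG-intermediate and CpG-rich start sites made up 11.7% of the members on chromosome 17 and 5.98% of those on chromosome 3.

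Peaks in distal lncRNA promoters were also lower in score. The median q score of the strongest peak per member was 44.8 in replicate 1 and 39.5 in replicate 2, against 162 and 79.3 at near members and 41.4 and 39.5 over all peaks of the lists. The ratio of near over distal medians was 2.81 ± 1.14 (SD, n = 2) over all members, 1.51 ± 0.257 within the CpG-poor class, 1.59 ± 0.164 within the CpG-intermediate and 1.57 ± 0.0808 within the CpG-rich class. Within the distal class the median rose from 41.7 and 37.6 at CpG-poor members to 80.4 and 48.7 at CpG-intermediate and 173 and 76.3 at CpG-rich members. Peaks also widened, from a median of 744 and 631 bp at CpG-poor members to 1456 and 1329 bp at CpG-rich members. The log2 ratio of ChIP over input did so in replicate 1 alone, from 2.84 at CpG-poor to 3.70 at CpG-rich members, against 2.73 and 2.64 in replicate 2.

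CpG-rich members had their peak on the start site. The strongest peak covered the start site at 90.4% and 86.8% of occupied CpG-rich members, 81.4% and 67.1% of CpG-intermediate members and 37.8% and 29.7% of CpG-poor members. The median distance from start site to peak midpoint was 205 and 194 bp in the CpG-rich class and 798 and 900 bp in the CpG-poor class. Of all CpG-rich distal start sites 75.5% were covered by a peak in replicate 1, against a mean of 6.58% of positions 5 to 10 kb away, a ratio of 11.5. For CpG-poor start sites the values were 6.42% and 2.86%, a ratio of 2.25, and in replicate 2 they were 3.09% and 1.57%. At near CpG-poor start sites coverage was 18.1% at the start and 8.93% at 5 to 10 kb in replicate 1, so the surroundings of near members were also more often covered. The DNA under peaks of CpG-poor members was itself mostly CpG-poor: the strongest peak was centred on DNA with a ratio below 0.48 in 91.7% and 91.8% of cases, and on CpG-rich DNA in 13 of 1052 and 9 of 673. At near CpG-poor members 18.1% and 19.3% of strongest peaks were centred on CpG-rich DNA.

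**Figure D3:**
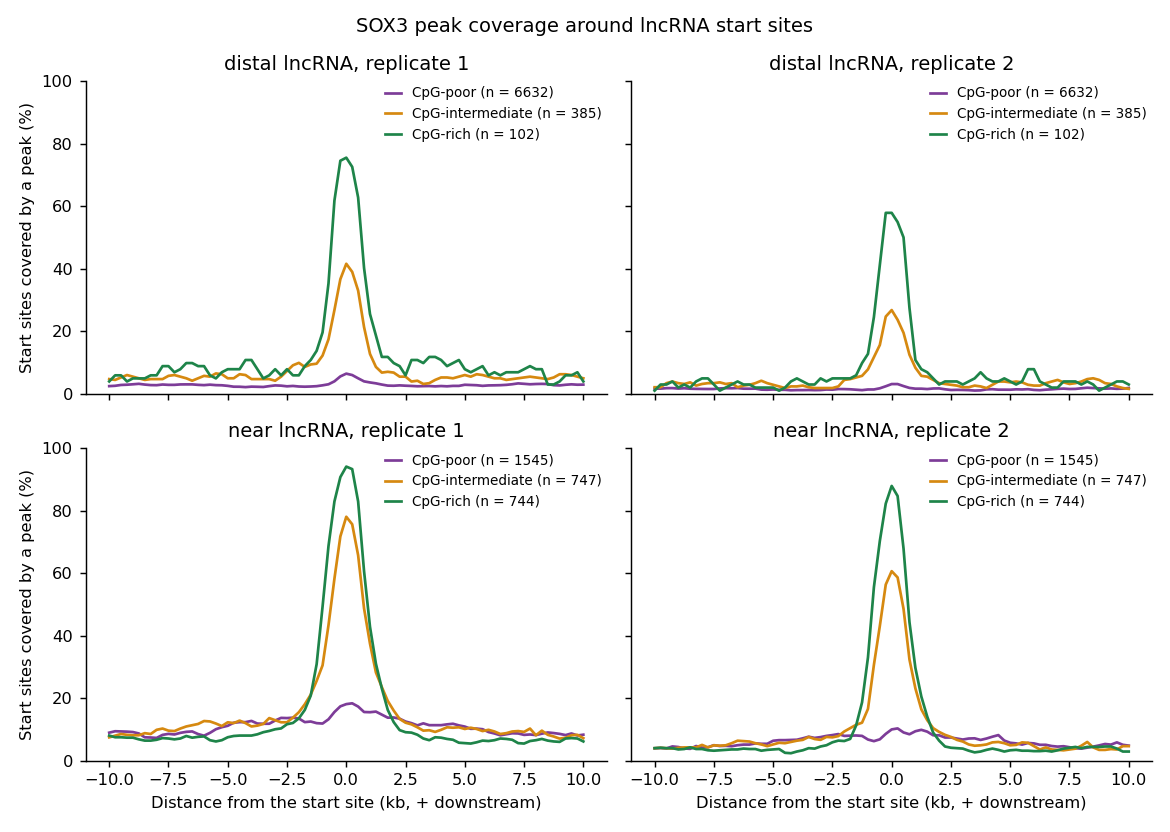
Share of start sites covered by a SOX3 peak (%) against distance from the start site (kb, positive downstream), for distal (top) and near (bottom) lncRNA start sites in each replicate, by CpG class. Coverage of CpG-rich distal start sites reaches 75.5% in replicate 1 at the start site, and that of CpG-poor ones 6.42% against 2.86% at 5 to 10 kb.

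Scores of the 491 members with overlapping peaks ranked alike in both replicates. Across members, Spearman's rho of the q scores was 0.66, against 0.86 for 1639 near members, while rho of the log2 ratios was 0.21. These correlations run across start sites within 1 pair of libraries and describe agreement of the lists, and the start sites share base composition and libraries.

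**Figure D4:**
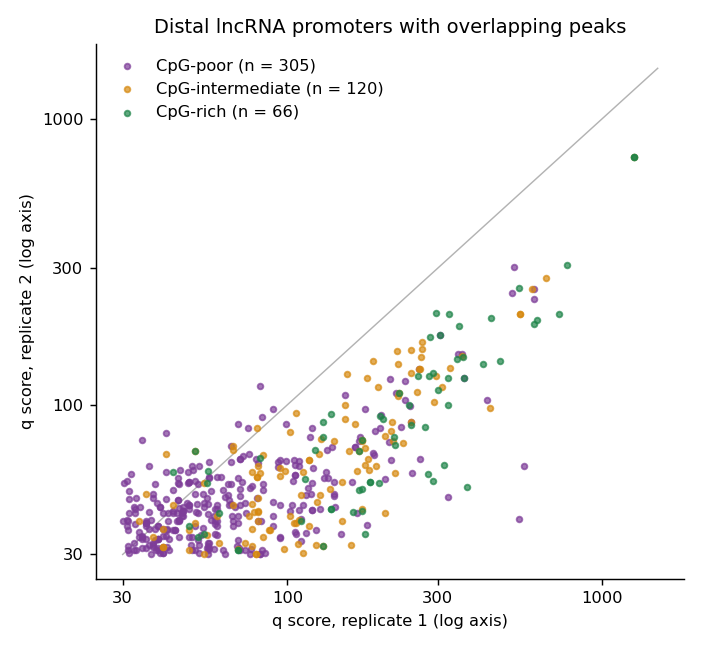
q score of the strongest peak in replicate 1 (horizontal, log axis) and replicate 2 (vertical, log axis) for the 491 distal lncRNA promoters with overlapping peaks, coloured by CpG class, with the line of equal scores. CpG-rich members reach higher scores, and the isolated point at 1258 and 737 is the peak shared by 3 members.

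The 8 distal members of highest mean rank of q score began with those at that shared peak. It spanned chr17:39842517-39849410 in replicate 1, contained the ribosomal RNA gene CT010467.1, and served AY036118, Gm26917 and Gm42418. Its q scores were 1258 and 737, but its log2 ratios of 2.32 and 1.71 lay below the medians over all peaks, 2.85 and 2.77. Ribosomal RNA genes occur in many copies of which the assembly holds few, and the part of copy number in this peak was not tested. Next came 2410006H16Rik (chromosome 11, 62602877 to 62604807), a CpG-rich host of Snord49a, Snord49b and Snord65 whose peaks had q scores of 774 and 307 and midpoints 67 and 4 bp downstream of the start site. 1700012D14Rik on chromosome 7, CpG-intermediate, had q scores of 663 and 278. The others were Gm2044, Malat1 and Mir17hg. The near lncRNA promoters of highest rank scored above all of these: Gm28872, at the small nuclear RNA gene Rnu11, with 2472 and 1744, A930033M14Rik with 2087 and 1341, and Gm11175, beside the transcription factor gene Jund, with 2118 and 1099. Of these 8 members 5 lay within 2 kb of a small RNA gene, as did 20 of the 100 highest-ranked members, against 6.92% of all 491 with overlapping peaks.

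The strongest peaks of CpG-poor members included several that stood on nearby CpG-dense DNA. Gm2044, near Mir202 and 14250 bp from the start site of Utf1, a gene of undifferentiated germ cells, had q scores of 605 and 255 over DNA with CpG ratios of 0.219 and 0.301 at the peak centres. Its peak lay on CpG-poor sequence, as did its start site. The peak of Mir17hg had q scores of 609 and 234, its midpoints lay at −1441 and −1398 bp from the annotated start site (minus is upstream), and it was centred on DNA with ratios of 1.04 and 1.03, against 0.332 at the start site itself. Gm12974 (q scores 525 and 302) and B930059L03Rik (516 and 246) also had peaks centred on CpG-rich DNA, upstream of the start site for the first and downstream for the second. AC141471.3 had q scores of 359 and 151 and CpG ratios of 0.247 and 0.462 at its peak centres.

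Of the 102 CpG-rich members, 18 lacked a peak in both replicates. The 5 with the highest CpG ratio were Gm10685 (0.978), Mir155hg (0.867), Gm12462 (0.861), Gm40847 (0.858) and Gm26709 (0.853). Mir155hg is the host of miR-155, a microRNA of immune cells. Gm12462 lies antisense within Pax5, a B cell factor gene. Gm10685 lies beside the small nuclear RNA gene Rnu1b6, and Gm26709 lay 5033 bp from a protein-coding start, just beyond the limit.

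Among lncRNAs with a known role, 61 names were listed, of which 34 matched a distal and 16 a near lncRNA gene. The list was drawn up with earlier results of these data known. Overlapping peaks lay at 15 of the 34 distal genes, a peak in 1 replicate alone at 8, and none at 11. The near genes had 11, 4 and 1. Over all distal lncRNA promoters 6.90% had overlapping peaks, over all near ones 54.0%, and over all genes 27.6%. The listed genes differed from the distal class in CpG content: 13 of the 34 were CpG-poor, 16 CpG-intermediate and 5 CpG-rich, and 3, 8 and 4 of these had overlapping peaks, beside 4.60%, 31.2% and 64.7% of all distal members of each class.

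The genes of the nuclear RNAs Malat1, found in nuclear speckles, and Neat1, the scaffold of paraspeckles, both had peaks of high score in both replicates. Malat1 had q scores of 600 and 254, and its replicate 1 peak was 15729 bp wide and contained the whole annotated gene, whereas the replicate 2 peak was 3746 bp wide and covered the start site but not the whole gene. Neat1 had q scores of 547 and 207 and peak widths of 13242 and 5013 bp.

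Of the distal host genes of small RNAs, 6 of 10 had overlapping peaks, beside 6.90% of all distal members. Dnm3os, Mir17hg, Snhg5, Snhg6 and Snhg12 have a small RNA gene within 2 kb of the start site, and all had overlapping peaks. Over all distal members with such a gene the share was 28.6%. Of the listed hosts without one that close, Dleu2 had overlapping peaks, and Mir99ahg, Mir124a-1hg, Mir9-3hg and Mir155hg did not. The near hosts had overlapping peaks in 6 of 6 cases, beside 54.0% of all near and 92.1% of CpG-rich near promoters. All of these near hosts but Mir22hg were CpG-rich. Snhg5 had q scores of 543 and 257, Snhg6 of 443 and 201, and Snhg12 of 246 and 129, all hosts of small nucleolar RNAs with peaks over the start site. Dleu2, host of miR-15a and miR-16, had 418 and 138, and Dnm3os, the CpG-poor host of miR-199a and miR-214, had 133 and 58.2. Mir124a-1hg and Mir9-3hg, hosts of neuronal microRNAs, and Mir155hg had no peak in either replicate, although none of the 3 was CpG-poor.

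Imprinted lncRNA genes, expressed from 1 parental allele, had overlapping peaks in 4 of 6 distal and 1 of 3 near cases. Over all distal promoters the share was 6.90%, and over all near ones 54.0%. The 4 distal genes were Airn with q scores of 173 and 43.3, Peg13 with 112 and 58.2, Kcnq1ot1 with 99.3 and 86.0 and Meg3 with 80.9 and 42.1. Kcnq1ot1 was CpG-poor and the others CpG-intermediate, classes in which 4.60% and 31.2% of distal members had overlapping peaks. H19 had a peak in replicate 1 alone (66.2), and Mirg had none. Around the X inactivation centre, Ftx had q scores of 80.4 and 82.9 and Jpx, an activator of Xist, 116 in replicate 1 alone. Xist, whose RNA coats the inactive X in female cells, and its antisense partner Tsix had no peak in either replicate. Firre, elsewhere on the X, had 112 and 30.5, the second just over the minimum of the lists.

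Of the 8 distal lncRNA genes of the developmental and pluripotency list, 0 had peaks in both replicates, and of the 7 near ones 4 did. With 6.90% of all distal members having overlapping peaks, a count of 0 of 8 is near that background. The near count stands beside 54.0% of all near promoters. Miat, 2900097C17Rik (Norad) and Bvht had a peak in replicate 1 alone and Pvt1 in replicate 2 alone, with q scores from 30.5 to 74.2. Hotair, of the HoxC cluster, Sox2ot, which overlaps Sox2, Rmst and Dlx6os1 had none, and these 4 were CpG-poor. In the germ line list, 1700020I14Rik was CpG-rich with q scores of 289 and 129, Gm29542 had 37.1 in replicate 1 alone, and Tslrn1 had none.

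**Figure D5:**
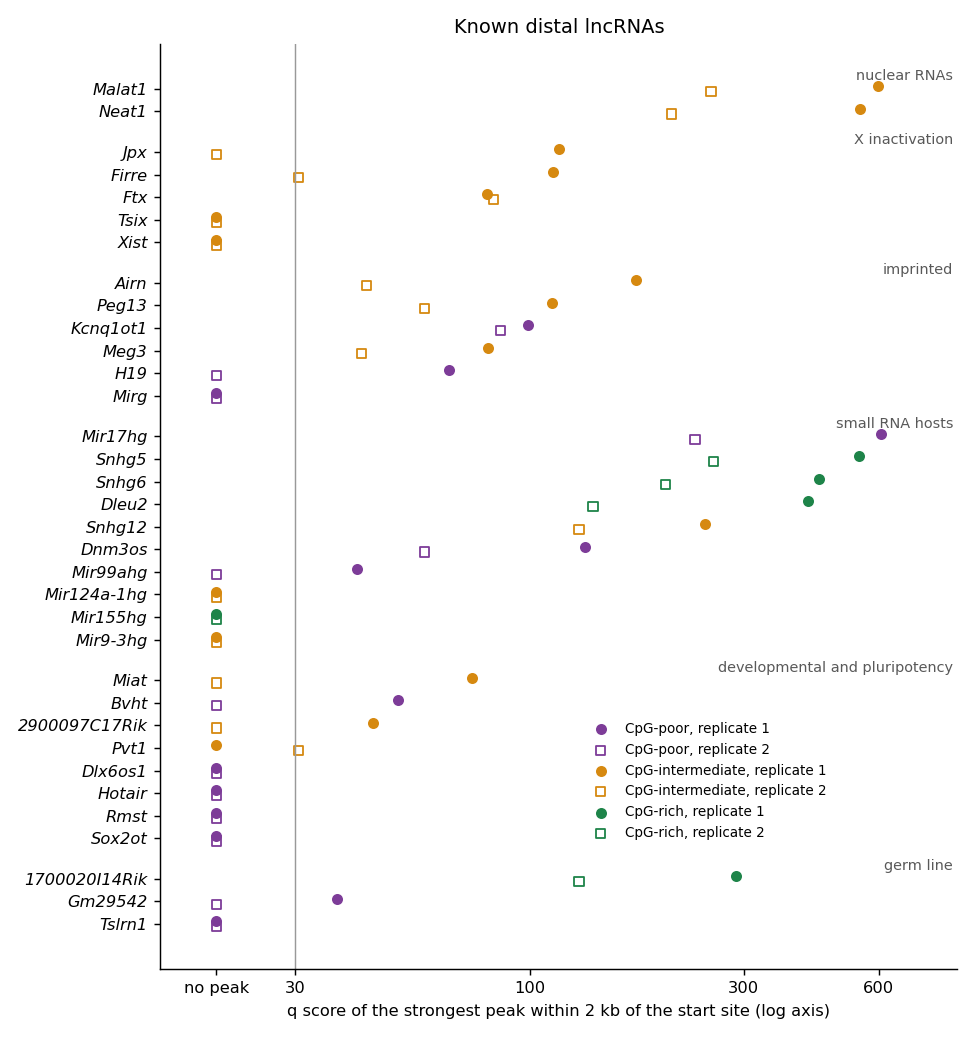
q score of the strongest peak within 2 kb of the start site (log axis) for the 34 distal lncRNA genes of the list, by group, with filled circles for replicate 1, open squares for replicate 2 and colours for CpG class. Points at "no peak" mark a replicate without one, and the line marks the minimum score of 30. Malat1, Neat1 and several small RNA hosts lie highest, and developmental genes lie at or below 74.2.

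Short motifs were counted on both strands in the 300 bases of each promoter, not under the peaks. The strongest peak covered the start site at only 37.8% and 29.7% of occupied CpG-poor members, so the counts describe the start site sequence and not the sites that SOX3 occupied. AACAAT, a core SOX site, was found in 14.1% (10.4 to 18.5) of the 305 CpG-poor members with overlapping peaks and 16.3% (15.3 to 17.3) of the 5289 CpG-poor members without a peak, and in 14.3% of all gene promoters. AACAAAG, which shares its first bases with AACAAT, was found in 7.21% and 9.91%, against 6.96% of all promoters. GGGCGG, the core of the GC box, was found in 17.4% (13.3 to 22.1) of CpG-poor members with overlapping peaks and 5.09% (4.51 to 5.71) of those without a peak, and in 61.8% and 18.2% of CpG-intermediate and CpG-rich members, against 22.7% of all promoters. This motif contains a CpG and so follows the CpG ratio in part. CCAAT was found in 36.7% and 43.0% of the CpG-poor groups and 38.4% of all promoters, and TATAAA in 10.2% and 16.9%, against 17.1% of all promoters. The occupied CpG-poor members also had a higher median GC content, 51.3% against 44.2%, and a higher median CpG ratio, 0.272 against 0.190. The CpG-poor members without a peak include the 551 on chromosome Y, and none of these contrasts was split by chromosome or masked share.

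ChIP-nexus gave few peaks, from libraries for which the study lists far fewer unique reads than for SOX3 ChIP-seq. Replicate 1 held 110 peaks on mouse chromosomes and replicate 2 held 18, of which 9 and 1 lay in distal lncRNA promoters, at 7 and 1 members. Only Gm33838 on chromosome 9 had one in both replicates, at chr9:35305031-35305846 in replicate 1, with fold enrichments over background of 31.8 and 44.6. This CpG-poor member had a ChIP-seq peak in replicate 1 alone, with a q score of 37.1, and that list had a peak over the ChIP-nexus peak. The other members in replicate 1 were AC134906.1 (fold 15.5), Gm10685 (9.67), Gm19951 (7.30) and the 3 genes of the ribosomal RNA segment (5.63 to 7.67). AC134906.1, Gm10685 and Gm19951 had no ChIP-seq peak. With 110 and 18 peaks, no comparison between CpG classes was made. Of the 110 ChIP-nexus peaks of replicate 1, 59 overlapped a peak of ChIP-seq replicate 1 and 58 one of ChIP-seq replicate 2. Of the 18 of replicate 2, 1 and 0 did, the 1 being that at Gm33838. The part of sequencing depth in these counts and in the overlap with ChIP-seq was not tested.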

How the data were processed

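Testis of mice at postnatal day 7 was profiled by SOX3 ChIP-seq and ChIP-nexus. According to the study's methods, Novoalign placed the ChIP-seq reads on the mm10 genome, with reads matching several places assigned at random, Picard removed duplicates, and USeq called peaks against input. The deposited ChIP-seq lists give, per peak, a p score and a q score by the authors' caller and a log2 ratio of ChIP over input. They have no header, so these meanings were inferred from the caller's layout and the values. The deposited ChIP-nexus lists from MACS2 2.1.1 give a score, a fold ratio over background, and −log10 p and q values by the authors. The study names a step that removed blacklisted regions from peaks, without saying whether it was applied to these lists per replicate. The lists hold no depth, and the read totals the study gives were not used.

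Gene start sites were the 5′ ends of genes in GENCODE M21. Peaks were intersected with the promoters at an overlap of 1 bp or more, and the strongest peak was that with the highest q score. CpG ratio and masked (lower case) share were computed from the RefSeq copy of GRCm38. Odds ratios came from logistic regression with Wald 95% intervals (statsmodels 0.14.6, Python 3.11.15), and shares have exact Clopper-Pearson intervals, with the limit at 3 counts beside a share of 0. Scripts were tested on simulated data and against bedtools 2.31.1. The members and lists were chosen with earlier results of these data known. Named genes were a list of known lncRNAs, the 8 distal members with overlapping peaks and the highest mean rank of q score, the 5 such CpG-poor members, the 5 CpG-rich members without a peak and with the highest ratio, the 2 start sites on each side of the distance limit, and members with ChIP-nexus peaks. The 3 near members of highest mean rank were named too. Of the 61 listed lncRNAs 11 did not match a lncRNA gene by symbol. The 15 samples without a list were not analysed here. Some promoter sequences are not reported here. The study describes the replicates as biological.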

Additional observations from a re-analysis of the deposited data

How the results depend on the processing

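All odds ratios (CpG ratio within distal members, distal against near and distal against protein-coding) kept their direction and an interval on the same side of 1 in both replicates under every alternative tried. Those included cluster-robust intervals by chromosome, which for distal against near with CpG ratio in the fit ran from 0.186 to 0.275 over both replicates. Of all comparisons with an alternative, 173 values kept their call or moved by less than 1 SD between replicates (for the overlap share, within its 95% interval), and 29 moved further. Some of the 173 could not have come out otherwise. With 2 replicates, leaving 1 out always moves a mean by less than 1 SD. Odds ratios without CpG ratio in the fit cannot change with the CpG window.

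A q score above 60 lowered the mean share of distal members with a peak from 15.6% to 3.99%, that with overlapping peaks to 2.16%, and the CpG-poor, intermediate and rich shares to 2.11%, 23.8% and 51.5%. It raised the median q score to 97.0 and lowered the near over distal ratio to 1.65. Counting only peaks covered by 50% or more in the other replicate gave, in the same order, 5.49%, 4.45%, 3.50%, 25.7% and 58.3%, with a median q score of 74.4. The number of replicates with a peak then changed for 13 of the 34 named lncRNAs, Malat1 and Neat1 included, against 10 with a q score above 60. RefSeq curated start sites (2253 distal members) gave 22.9%, 12.7% with overlapping peaks, 60.7% of CpG-intermediate and 85.2% of CpG-rich members, and a median q score of 46.5. A window of 500 bp on each side gave 10.1% of all members, 5.13% with overlapping peaks and 7.46% of CpG-poor members. CpG ratio over 300 bases gave 29.3% of CpG-intermediate and 61.0% of CpG-rich members. The share with overlapping peaks was 5.72% with a 1-kb window, 6.14% at a limit of 10 kb, 6.24% without processed transcripts and small types, 6.07% with TEC genes, 6.12% by peak midpoint and 8.09% at start sites under 50% masked. This last alternative and those without the 3 members at the ribosomal RNA gene or without small RNA genes nearby were added after seeing the data.

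Leaving out each replicate in turn gave 12.5% to 18.7% of all members, 10.1% to 15.9% for CpG-poor, 37.9% to 50.4% for CpG-intermediate and 66.7% to 81.4% for CpG-rich members, a median q score of 39.5 to 44.8, and a near over distal ratio of 2.004 to 3.61. Overlap between replicates has no value with 1 replicate. No paired analysis was possible because each comparison is between classes of start sites within the same 2 SOX3 libraries. Without read counts per promoter, a promoter with no signal was not distinguished from one below the peak threshold.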
